A study of Mus musculus with 7 samples.

Results

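Collagen and laminin genes encode chains of the main structural protein families of the extracellular matrix. All gene symbols of the forms Col, number, a, number and Lama, Lamb or Lamc, number were taken from the bulk count table, which gave 55 members, 44 collagens and 11 laminins, among 50600 entries. Of these members, 35 were among the 15536 genes listed in the single-cell table. The study set neural stem and progenitor cells (NSPCs) of the adult mouse dentate gyrus (DG), a part of the hippocampus that adds granule neurons throughout life, against the tissue they come from. The bulk groups were 4 NSPC cultures (F1 and F2 of females, M1 and M2 of males) derived from C57Bl6J mice aged 6 to 8 weeks and kept to passages 6 to 15, and 2 whole DG samples (female F1, male M2) from mice aged 7 to 9 weeks. Cultures grew on plates coated with poly-D-lysine and laminin, in Neurobasal A with B27 lacking vitamin A, GlutaMAX, 20 ng/ml of epidermal growth factor and as much fibroblast growth factor 2. The single-cell library mixed 3 cultures, 2 female and 1 male, that its cell names do not tell apart, and its mice were aged 6 to 9 weeks. The laminin of the coating is protein and adds no RNA. No genetic alteration is named for any group.

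Collagens are trimers of chains that each hold a triple-helical stretch. Fibrillar collagens build cables in connective tissue, collagen IV builds the mesh of basement membranes, and smaller families link fibrils, span the cell membrane or carry heparan sulfate. Laminins are cross-shaped trimers of an alpha, a beta and a gamma chain, and they start basement membrane assembly by binding integrins and dystroglycan on the cell surface. In the adult brain, basement membranes lie around blood vessels and beneath the pia, and processes of neural stem cells contact those of the vessels.

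Deposited gene counts summed to between 9917697 and 11747408 in the cultures and to 16676618 and 17351636 in whole DG. Levels are counts per 1000000 (CPM) on library sizes scaled by the trimmed mean of M values (TMM). A gene's values are listed for cultures F1, F2, M1 and M2 and for whole DG F1 and M2. Cultures and tissue were made into libraries with different kits, so in each difference between them, the kit and the group cannot be told apart. Nor can, in these bulk samples, fewer cells of a type and less RNA per cell. The 15 endothelial markers summed to between 7.25 and 13.8 CPM in the cultures and to between 228 and 236 CPM in whole DG, and 15 of 15 fell. Neuron markers fell as well (11 of 11). Over all 18088 genes tested, 35.6% rose and 41.7% fell. Of 8 astrocyte and progenitor markers, 3 rose (Nes, Fabp7 and Slc1a3), 4 fell (Sox2, Hopx, Gfap and Aqp4) and Aldoc did not pass, with a median log2 difference of −1.79. Nes, the intermediate filament nestin, had 1443, 1010, 1045 and 1356 CPM in the cultures, against 9.86 and 9.60 CPM in whole DG. Sox2, a transcription factor of neural progenitors, had 7.84, 5.28, 5.72 and 5.55 CPM in the cultures, against 36.9 and 35.6 CPM in whole DG. The single-cell library of such cultures ranked Sox2 above every member, as given below.

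Promoter sequences are shown for 5 members whose values carry the findings below. Col6a2 and Col18a1 are near neighbours that differed widely between cultures, Lama5 and Col28a1 were among the members that rose in culture, and Col25a1 was nearly absent there. The windows come from RefSeq on GRCm38.p6, hold the bases just before an annotated transcript start and are written 5′ to 3′ on the gene's strand. Capitals mark motifs, namely the GC box written GGGCGG, the box of the TATA type written TATAAA, and the box written CCAAT, each searched on both strands. No match overlaps another motif.
Col6a2, chr10:76623631-76623830, minus strand: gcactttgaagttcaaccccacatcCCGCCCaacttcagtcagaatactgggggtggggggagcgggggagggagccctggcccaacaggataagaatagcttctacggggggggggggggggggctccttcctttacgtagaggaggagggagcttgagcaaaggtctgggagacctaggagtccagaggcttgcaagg
Col18a1, chr10:77166549-77166730, minus strand: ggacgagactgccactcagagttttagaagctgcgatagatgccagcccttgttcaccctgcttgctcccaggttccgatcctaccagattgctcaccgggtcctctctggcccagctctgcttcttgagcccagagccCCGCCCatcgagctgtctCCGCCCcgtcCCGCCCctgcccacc
Lama5, chr2:180225860-180226059, minus strand: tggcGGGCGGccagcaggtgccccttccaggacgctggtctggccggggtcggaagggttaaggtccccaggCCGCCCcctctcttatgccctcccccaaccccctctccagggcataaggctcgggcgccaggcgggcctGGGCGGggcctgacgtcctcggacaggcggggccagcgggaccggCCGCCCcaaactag
Col28a1, chr6:8192618-8192817, minus strand: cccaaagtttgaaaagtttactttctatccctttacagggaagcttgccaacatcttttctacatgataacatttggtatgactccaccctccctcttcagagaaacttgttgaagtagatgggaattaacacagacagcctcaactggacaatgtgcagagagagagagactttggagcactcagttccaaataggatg
Col25a1, chr3:130180645-130180844, plus strand: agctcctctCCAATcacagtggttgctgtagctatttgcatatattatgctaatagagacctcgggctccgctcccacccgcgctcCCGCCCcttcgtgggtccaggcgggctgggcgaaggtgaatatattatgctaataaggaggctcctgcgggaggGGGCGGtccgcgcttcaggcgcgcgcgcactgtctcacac

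These letters differ in kind. The Lama5 window is 74.0% GC with 4 GC boxes and 16 CpG pairs, whereas the Col28a1 window is 42.0% GC with 0 of the motifs and 0 CpG pairs. The printed Col18a1 window of 182 bases holds 3 GC boxes, the printed Col6a2 window 1, and the Col25a1 window 2 GC boxes and 1 CCAAT box. Col18a1 has another window, 77113706 to 77113905, with 0 GC boxes, and Col6a2 another, 76623405 to 76623604, with 3. Both lie wholly in annotated exons, and which start the cultures use was not tested. The Col25a1 start used here lies inside the annotated gene, which spans 130131501 to 130599877. The table held 40 of the 55 members, with 44 windows of 200 bases. A GC box was present in 24 of these (54.5%), against 31.0% of all 32851 such windows, a TATA box in 9.1% against 10.0%, and a CCAAT box in 11 of the 44 windows, against 29.3% of all. A match is a run of letters, not a binding site.

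The first comparison asked how the matrix transcripts of cultured NSPCs differ from those of the tissue. Laminins were on balance higher and collagens were split. Of 46 members with enough counts to test, 16 rose and 20 fell in the cultures at an adjusted p under 0.05, and 10 did not pass (edgeR quasi-likelihood test, Benjamini-Hochberg adjusted over all genes). With trends in gene length and GC content removed, the split was 21 higher and 14 lower, and 18 of the 23 members named by their level moved by over 1.5-fold. The same test called 77.3% of all 18088 genes, 35.6% higher and 41.7% lower, so that the members' total share called was close to that of genes at large. Asked for a fold above 2, it found 13 members higher and 18 lower, where it called 52.2% of all genes, 20.3% higher and 31.9% lower. The median log2 difference was −0.35 over the tested members and −0.13 over all genes.

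Of the 11 laminins, all tested, 8 rose and 3 fell, with a median log2 difference of 1.60. Of the 35 tested collagens, 8 rose, 17 fell and 10 did not pass, with a median of −0.66. Both counts stand beside 35.6% higher and 41.7% lower over all genes tested. Summed over the family, laminins reached 503, 623, 510 and 462 CPM in the cultures, against 149 and 167 CPM in whole DG. Collagens summed to 671, 675, 753 and 492 CPM in the cultures and to 341 and 419 CPM in whole DG. Both sums were above both tissue libraries in every culture. All cultures lay above or all below both whole DG libraries in 36 of the 46 tested members, and in 83.6% of all genes tested.

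**Figure D1:**
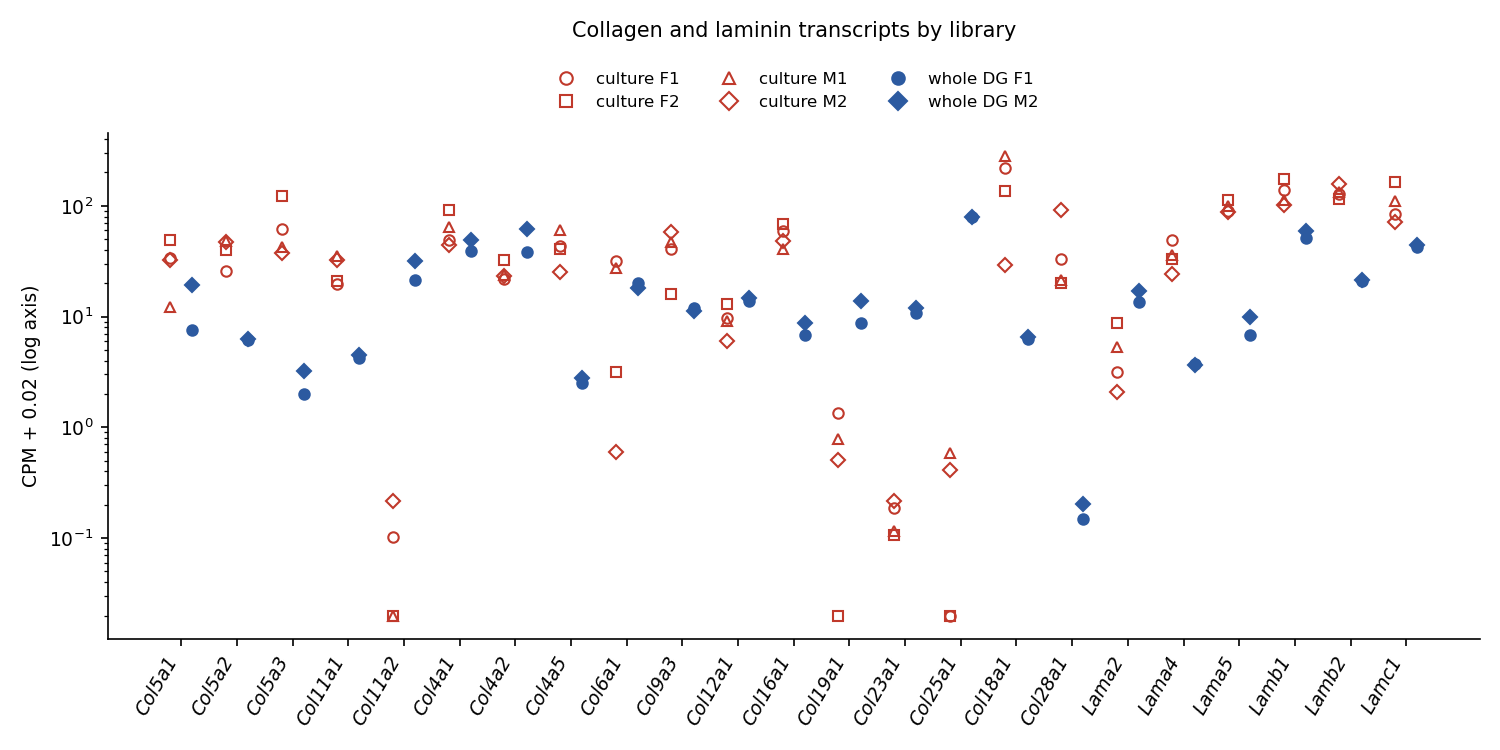
Transcript levels (CPM plus 0.02, log axis) of the 23 members with a mean of 10 CPM or more in a bulk group or 0.1 UMI per 10000 in the single cells, 1 symbol per library, cultures in open red to the left of whole DG in filled blue. The red symbols lie above both blue ones for Col18a1, Lama5 and Lamb2, far below them for Col25a1 and Col11a2, and spread on both sides of them for Col6a1.

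Among laminin alpha chains, which carry the cell-binding end of the trimer, the cultures were rich in Lama5 and Lama4 and poor in Lama2. Lama5, the alpha chain of many mature basement membranes, had 89.9, 113, 98.9 and 88.2 CPM in the cultures, against 6.83 and 9.90 CPM in whole DG. It rose by a log2 difference of 3.54 ± 0.22 (SE; adjusted p = 2.27e-06, edgeR), and every culture stood above both tissue libraries. With length and GC trends removed, the log2 difference was 5.82 for Lama5 and 3.89 for Lama4. Lama4, the alpha chain typical of vessel walls, had 48.6, 33.1, 35.6 and 24.1 CPM in the cultures, against 3.67 and 3.64 CPM in whole DG, also without overlap, and a log2 difference of 3.27 ± 0.32 (SE; adjusted p = 3.08e-05, edgeR). In the opposite direction Lama2, the alpha chain of muscle and of the astrocyte side of vessels, had 3.14, 8.66, 5.34 and 2.05 CPM in the cultures, against 13.5 and 17 CPM in whole DG. It fell by 1.67 ± 0.47 in log2 (SE; adjusted p = 0.0116, edgeR). That call was lost without whole DG M2 (edgeR adjusted p = 0.0784) and with length and GC trends removed (adjusted p = 0.193).

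Lama1 and Lama3 were scarce. Lama1, found in embryonic and pial basement membranes, had 1.16, 5.37, 3.91 and 4.77 CPM in the cultures, against 0.902 and 1.58 CPM in whole DG, and its groups overlapped, since culture F1 lay below whole DG M2. It passed narrowly, at log2 1.60 ± 0.62 (SE; adjusted p = 0.0437, edgeR). Lama3, the alpha chain of the skin laminin, had 0.413, 0.0866, 1.43 and 0.0974 CPM in the cultures, against 4.19 and 3.64 CPM in whole DG, and it fell by 2.94 ± 0.77 in log2 (SE; adjusted p = 0.00798, edgeR). As shares of alpha chain transcripts per kb of exon, Lama5 made up 70.1% ± 4.43 in cultures and 29.5% ± 3.50 in whole DG (SD, n = 4 and 2 throughout). Lama2 made up 2.31% ± 1.19 in cultures, against 37.9% ± 0.679 in whole DG. The shares of both genes did not overlap between groups, although with 4 samples against 2 an exact two-sided permutation test cannot go below p = 0.133, the value both reached.

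All 3 beta chains and Lamc1 rose. Lamb1, a broadly used beta chain, had 139, 173, 112 and 101 CPM in the cultures, against 51.1 and 59.4 CPM in whole DG, at log2 1.25 ± 0.23 (SE; adjusted p = 0.00126, edgeR). Lamb2, the beta chain of neuromuscular and vascular basement membranes, had 127, 114, 134 and 156 CPM in the cultures, against 20.9 and 21.3 CPM in whole DG, at log2 2.65 ± 0.17 (SE; adjusted p = 2.86e-06, edgeR). The rise of Lamb2 was the larger by 1.40 on the log2 scale: the ratio of Lamb2 to Lamb1 counts was 0.914, 0.658, 1.20 and 1.54 in the cultures, against 0.410 and 0.359 in whole DG. Per kb, Lamb2 held 60.2% ± 7.92 of beta chain transcripts in cultures and 37.2% ± 2.57 in whole DG, where Lamb1 was the main beta chain. Lamc1, the gamma chain of most laminins, had 83.4, 166, 110.5 and 71.0 CPM in the cultures, against 42.6 and 44.5 CPM in whole DG, at log2 1.31 ± 0.33 (SE; adjusted p = 0.00642, edgeR). Whole DG was lower for each of these genes than any culture. With length and GC trends removed, the log2 difference was 3.97 for Lamb2 and 1.88 for Lamb1.

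Lamb3 and Lamc3 were below 11 CPM in every library and were named after their values were seen. Lamb3, a partner of Lama3 in skin, had 7.01, 7.27, 6.58 and 10.6 CPM in the cultures, against 1.61 and 2.79 CPM in whole DG. It rose, by a log2 difference of 1.83, while its partner Lama3 fell. Lamc3, a gamma chain of the retina and the cortical surface, had 0.248, 0.173, 0.0954 and 0.0974 CPM in the cultures, against 2.58 and 2.67 CPM in whole DG, at log2 −3.98 ± 0.48 (SE; adjusted p = 9.79e-05, edgeR).

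**Figure D2:**
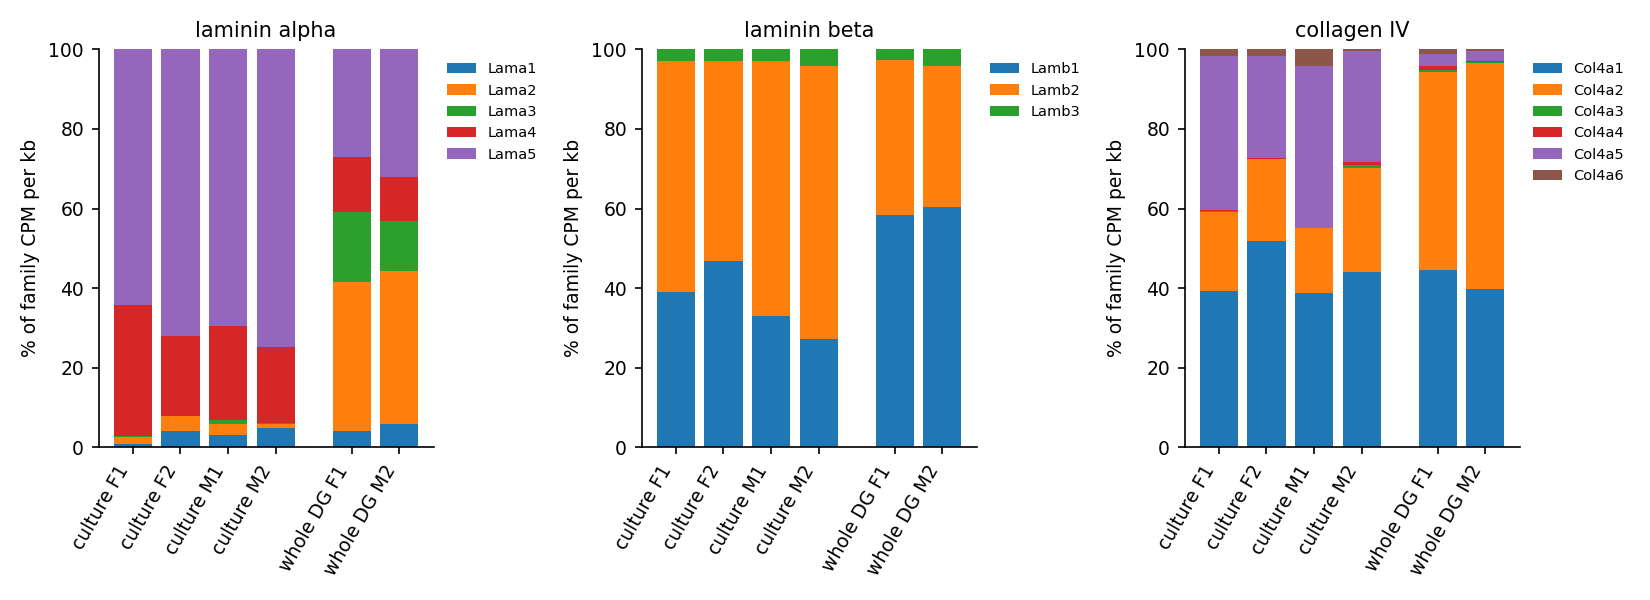
Share (%) of each chain in the CPM per kb of exon of its family, for laminin alpha, laminin beta and collagen IV, 1 stacked bar per library with the 4 cultures left of the 2 whole DG samples. Lama5 takes 64.3% to 74.7% of the alpha bar in cultures and 27.1% and 32.0% in whole DG, and Col4a5 takes 25.6% to 40.7% of the collagen IV bar in cultures and 3.21% and 2.53% in whole DG.

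Collagen IV chains form the basement membrane mesh, with the Col4a1 and Col4a2 chains as the common trimer. Col4a1 and Col4a2 start head to head on chromosome 8, where their annotated ends overlap by 22 bases (11312805 to 11312826, GRCm38). The pair parted in the cultures. Col4a1 had 49.0, 92.5, 64.4 and 44.2 CPM in the cultures, against 38.8 and 48.9 CPM in whole DG, with culture M2 between the tissue libraries, and did not pass, at log2 0.51 ± 0.30 (SE; adjusted p = 0.145, edgeR). Col4a2 had 21.9, 32.7, 23.9 and 23.2 CPM in the cultures, against 38.5 and 61.7 CPM in whole DG, with every culture below both tissue libraries, at log2 −0.98 ± 0.23 (SE; adjusted p = 0.00503, edgeR). The ratio of Col4a1 to Col4a2 counts was 2.24, 2.83, 2.69 and 1.91 in the cultures, against 1.01 and 0.792 in whole DG, without overlap (exact two-sided permutation p = 0.133, the smallest these numbers allow).

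The Col4a2 value depends on the treatment of length and GC. With those trends removed, its log2 difference was 0.88 (edgeR adjusted p = 0.00604) in place of −0.98, and that of Col4a1 was 1.75 (adjusted p = 0.000869). The gap between them, 1.49 in log2, was then 0.875. The fall of Col4a2 also missed the threshold without whole DG M2 (−0.60, edgeR adjusted p = 0.0904).

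Of the other collagen IV chains, Col4a5 stood out. Col4a5, which joins Col4a3 and Col4a4 or Col4a6 in specialised basement membranes, had 43.2, 41.1, 60.9 and 25.2 CPM in the cultures, against 2.51 and 2.79 CPM in whole DG, at log2 4.00 ± 0.39 (SE; adjusted p = 3.10e-05, edgeR). Its share of collagen IV transcripts per kb was 33.2% ± 7.54 in cultures and 2.87% ± 0.480 in whole DG, where Col4a1 and Col4a2 made up nearly all. Col4a6, its head-to-head neighbour 1309 bases away on chromosome X, had 2.31, 3.46, 7.25 and 0.390 CPM in the cultures, against 1.03 and 0.607 CPM in whole DG, and it did not pass, at log2 2.02 ± 0.94 (SE; adjusted p = 0.0787, edgeR). Col4a3 and Col4a4, the kidney and lung partners of Col4a5, stayed at or below 1.07 CPM in every library, and Col4a3 had too few counts to test.

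Collagen XVIII and collagen XV are multiplexins, basement membrane collagens whose ends yield endostatin and a related fragment. They went opposite ways. Col18a1 had 218, 137, 284 and 29.0 CPM in the cultures, against 6.25 and 6.50 CPM in whole DG, and had the highest mean per kb over the cultures (23.8 CPM per kb, against 21.8 for Lamb2). Lamb2 led in M2, with 25.7 against 4.13 CPM per kb for Col18a1, and in the mean without F1 (22.1 against 21.4) or without M1 (21.8 against 18.2). Col18a1 rose by 4.71 ± 0.89 in log2 (SE; adjusted p = 0.00143, edgeR), or 6.64 with length and GC trends removed, and its cultures did not overlap whole DG. They differed 9.78-fold among themselves, with M2 lowest. Its paralogue Col15a1, named after its values were seen, had 1 count over the cultures and 216 over whole DG, a ratio of whole DG to culture of 300.02 (95% exact interval 53.3 to 11904, counting error only).

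Collagen VI, which forms beaded filaments near cells and binds collagen IV, held the widest spread between cultures among members of 10 CPM or more in culture. Col6a1 had 31.5, 3.12, 27.4 and 0.584 CPM in the cultures, against 20.0 and 18.2 CPM in whole DG. Cultures F1 and M1 were above both tissue libraries, and F2 and M2 were below them, so the groups overlapped and the difference did not pass, at log2 −0.29 ± 1.07 (SE; adjusted p = 0.816, edgeR). Its sign turned without culture F2 (0.063) or without M2 (0.12). Col6a2, its partner in the trimer, had 10.2, 1.13, 8.01 and 0.487 CPM in the cultures, against 5.74 and 5.10 CPM in whole DG, with the cultures in the same order, at log2 −0.13 ± 0.94 (SE; adjusted p = 0.907, edgeR). The highest culture was 53.9 times the lowest for Col6a1, from 382 counts in F1 and 6 in M2. Culture M2 held 5 counts of Col6a2, so the exact folds of both genes are uncertain. Only 10 of 9764 genes with a culture mean of 10 CPM or more had a ratio that large, and 31 had one as large as that of Col18a1, against a median of 1.38.

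Col6a1 and Col18a1, the members of that level with the widest spread, are neighbours of Col6a2 on chromosome 10 (GRCm38): Col6a2 from 76595762 to 76623630, Col6a1 from 76708792 to 76726168 and Col18a1 from 77052178 to 77166548, all on the minus strand. Genes between and around them varied less among the cultures. Pcbp3, an RNA-binding protein gene between Col6a1 and Col18a1, had 64.1, 54.5, 47.1 and 52.3 CPM in the cultures, against 49.7 and 52.8 CPM in whole DG, a ratio of highest to lowest culture of 1.36. Slc19a1, the folate carrier whose annotated span overlaps the end of Col18a1, had 27.3, 24.6, 31.0 and 18.6 CPM in the cultures, against 10.6 and 11.9 CPM in whole DG, a ratio of 1.67. Pofut2, past the start of Col18a1, had a ratio of 1.14, and Mcm3ap and Lss, past the end of Col6a2, had 1.23 and 2.02. The labels set the cultures apart by sex only and give their passages as 1 range. Culture M1 was highest for Col18a1, F1 for Col6a1 and Col6a2, and M2 was lowest for all 3.

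**Figure D3:**
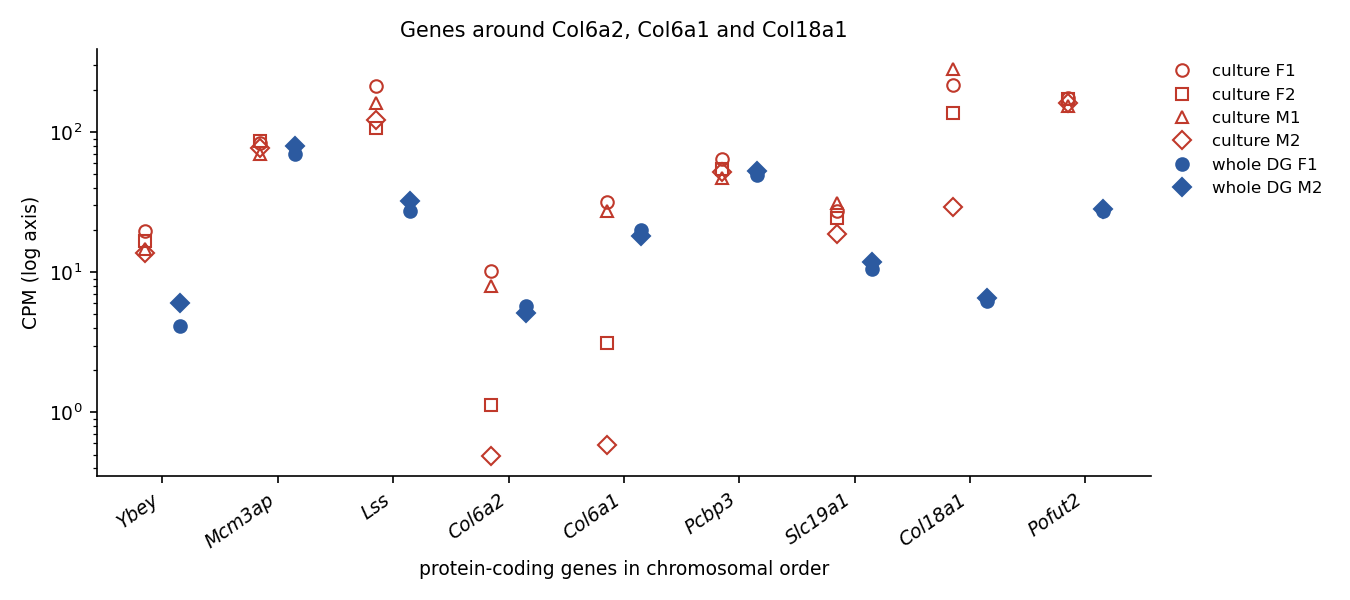
CPM (log axis) of Col6a2, Col6a1, Col18a1 and the protein-coding genes within 200000 bases that averaged 10 CPM or more in cultures, in chromosomal order, 1 symbol per library with cultures in open red left of whole DG in filled blue. The red symbols spread 53.9-fold for Col6a1, 20.8-fold for Col6a2 and 9.78-fold for Col18a1, and by at most 2.02-fold for the other genes. The lowest symbols of Col6a1 and Col6a2, culture M2, rest on 6 and 5 counts.

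The other collagen VI chains were scarce in culture. Col6a3, the large chain that completes the usual trimer, was named after its values were seen and had 0.578, 0.173, 0.763 and 0.195 CPM in the cultures, against 4.83 and 6.01 CPM in whole DG, at log2 −3.64 ± 0.51 (SE; adjusted p = 0.000255, edgeR). Col6a4 fell too, by 3.03 on the log2 scale, and Col6a5 and Col6a6 had too few counts to test.

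Of 10 tested fibrillar collagens, 3 rose, 6 fell and 1 did not pass, where 35.6% of all genes rose and 41.7% fell. The 3 that rose, Col5a2, Col5a3 and Col11a1, are chains of collagens V and XI, which start and limit the growth of fibrils. Col5a2 had 25.5, 39.8, 47.6 and 47.5 CPM in the cultures, against 6.12 and 6.26 CPM in whole DG, at log2 2.69 ± 0.30 (SE; adjusted p = 6.33e-05, edgeR). Col5a3 had 61.3, 123, 42.7 and 37.6 CPM in the cultures, against 2.00 and 3.22 CPM in whole DG, at log2 4.65 ± 0.61 (SE; adjusted p = 0.000178, edgeR). Col11a1 had 19.7, 20.9, 35.4 and 32.6 CPM in the cultures, against 4.19 and 4.43 CPM in whole DG, at log2 2.65 ± 0.32 (SE; adjusted p = 0.00011, edgeR). None of these overlapped whole DG. With length and GC trends removed, the log2 difference was 6.56 for Col5a3 and 3.31 for Col11a1. Col5a1, the chain present in nearly all collagen V, had 33.9, 48.6, 12.3 and 32.6 CPM in the cultures, against 7.61 and 19.1 CPM in whole DG, and it overlapped the tissue through culture M1.

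The Col5a1 difference did not pass, at log2 1.26 ± 0.55 (SE; adjusted p = 0.0642, edgeR). It passed without culture M1 (1.53, edgeR adjusted p = 0.0110), without whole DG M2 (2.06, 0.0384), with upper quartile factors (1.42, 0.0406), with DESeq2 (1.17, 0.0299) and with length and GC trends removed (2.83, 0.00205). Within collagen V, Col5a3 made up 52.5% ± 11.2 of transcripts per kb in cultures and 15.0% ± 1.44 in whole DG, and Col5a1 21.1% ± 6.98 in cultures and 57.8% ± 12.5 in whole DG.

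The bulk fibrillar collagens of connective tissue were near absent in the cultures. Col1a1, Col1a2 and Col3a1, named after their values were seen, are made mainly by fibroblasts. Col1a1 had 1.07, 0.346, 0.859 and 0.292 CPM in the cultures, against 5.54 and 4.37 CPM in whole DG, at log2 −2.92 ± 0.49 (SE; adjusted p = 0.000712, edgeR). Col1a2 had 0.495, 0.0866, 1.14 and 0.0974 CPM in the cultures, against 6.06 and 7.59 CPM in whole DG, at log2 −3.89 ± 0.68 (SE; adjusted p = 0.000903, edgeR), and Col3a1 fell by 2.96 (SE 0.45; adjusted p = 0.000413, edgeR). Markers of fibroblasts and leptomeninges fell in 9 of 10 tested genes, where 41.7% of all genes fell. They summed to between 44.9 and 74.7 CPM in cultures and to between 198 and 252 CPM in whole DG. Of the culture sum, most was Ptgds, with 34.7, 40.0, 45.5 and 64.2 CPM in the cultures, against 108 and 71.0 CPM in whole DG. The part of these cells in the collagen falls was not tested. Col11a2 had 3 counts in the cultures together, 1 in F1 and 2 in M2, and 857 in whole DG, a ratio of whole DG to culture of 397 (95% exact interval 135 to 1928). In CPM it had 0.0825, 0, 0 and 0.195 CPM in the cultures, against 21.3 and 31.9 CPM in whole DG, so that the 2 collagen XI chains moved in opposite directions. The fitted log2 difference was −8.43, −9.42 without culture M2, and −5.76 with length and GC trends removed.

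Collagens that decorate or link fibrils (FACIT collagens, with interrupted triple helices) gave 2 higher, 4 lower and 2 not passing of 8 tested. That is near the shares of all genes, 35.6% higher and 41.7% lower. Col16a1, found next to fibrils and basement membranes, had 58.8, 67.8, 40.7 and 47.9 CPM in the cultures, against 6.83 and 8.75 CPM in whole DG, at log2 2.79 ± 0.26 (SE; adjusted p = 2.42e-05, edgeR), and 4.81 with length and GC trends removed. Col9a3, a chain of the cartilage collagen IX, had 41.0, 15.9, 47.3 and 57.9 CPM in the cultures, against 11.9 and 11.1 CPM in whole DG, at log2 1.82 ± 0.46 (SE; adjusted p = 0.00679, edgeR), with culture F2 nearest the tissue and the call lost without whole DG M2 (1.77, edgeR adjusted p = 0.0535). It was 2.69 with those trends removed. Its partner Col9a2 fell by 2.69 on the log2 scale and Col9a1 was too scarce to test. Col12a1 had 9.74, 13, 9.16 and 5.94 CPM in the cultures, against 13.9 and 14.7 CPM in whole DG. All cultures lay below both tissue libraries, but the difference did not pass, at log2 −0.60 ± 0.29 (SE; adjusted p = 0.0929, edgeR). It passed without culture F2 (−0.78, edgeR adjusted p = 0.0257) and with length and GC trends removed it was 0.41.

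Col19a1, which in mouse brain is made by inhibitory interneurons and takes part in synapse formation, had 1.32, 0, 0.763 and 0.487 CPM in the cultures, against 8.64 and 13.8 CPM in whole DG. It fell by 4.10 ± 0.69 in log2 (SE; adjusted p = 0.00074, edgeR), and its log2 difference was −4.74 without culture F1. Interneuron genes were low in the same cultures: Gad1, which makes GABA, had 4.62, 5.11, 5.53 and 7.60 CPM in the cultures, against 423 and 401 CPM in whole DG. The part of neurons in the Col19a1 fall was not tested.

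Transmembrane collagens, which are anchored in the plasma membrane, gave 2 lower and 1 not passing of 3 tested, where 41.7% of all genes were lower. Col25a1, a neuronal collagen whose shed part is found in amyloid plaques, had 0, 0, 0.572 and 0.390 CPM in the cultures, against 78.6 and 78.9 CPM in whole DG. Its mean in whole DG was 6.08 CPM per kb, beside 7.57 for Col4a2, and the cultures held 10 counts in all, in M1 and M2. It fell by 8.38 ± 0.53 in log2 (SE; adjusted p = 2.63e-06, edgeR), and its log2 difference was −9.26 without culture M1 and −7.54 with length and GC trends removed. Col23a1 had 0.165, 0.0866, 0.0954 and 0.195 CPM in the cultures, against 10.7 and 11.8 CPM in whole DG, at log2 −6.28 ± 0.36 (SE; adjusted p = 1.59e-06, edgeR), and −5.69 with those trends removed. Col13a1 did not pass and Col17a1, a collagen of skin attachment, had too few counts. In sum, transmembrane collagens reached 1.07, 1.04, 1.05 and 0.779 CPM in the cultures, against 90.6 and 92.0 CPM in whole DG.

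Col28a1, a collagen described around glia of peripheral nerves, had the largest rise of all tested members. It had 32.9, 20.1, 21.3 and 92.5 CPM in the cultures, against 0.129 and 0.182 CPM in whole DG. These were 1804 counts over the cultures and 5 over whole DG. The log2 difference was 7.97 ± 1.10 (SE; adjusted p = 0.000228, edgeR), and 7.23 without M2, the culture with the highest value. The members not described singly, each under 10 CPM in both groups, were Col2a1, Col27a1, Col14a1, Col20a1 and Col7a1, which fell, and Col22a1 and Col26a1, which did not pass. The 9 members with too few counts to test averaged at most 0.681 CPM in either group, and were Col4a3, Col6a5, Col6a6, Col8a1, Col8a2, Col9a1, Col10a1, Col17a1 and Col24a1.

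**Figure D4:**
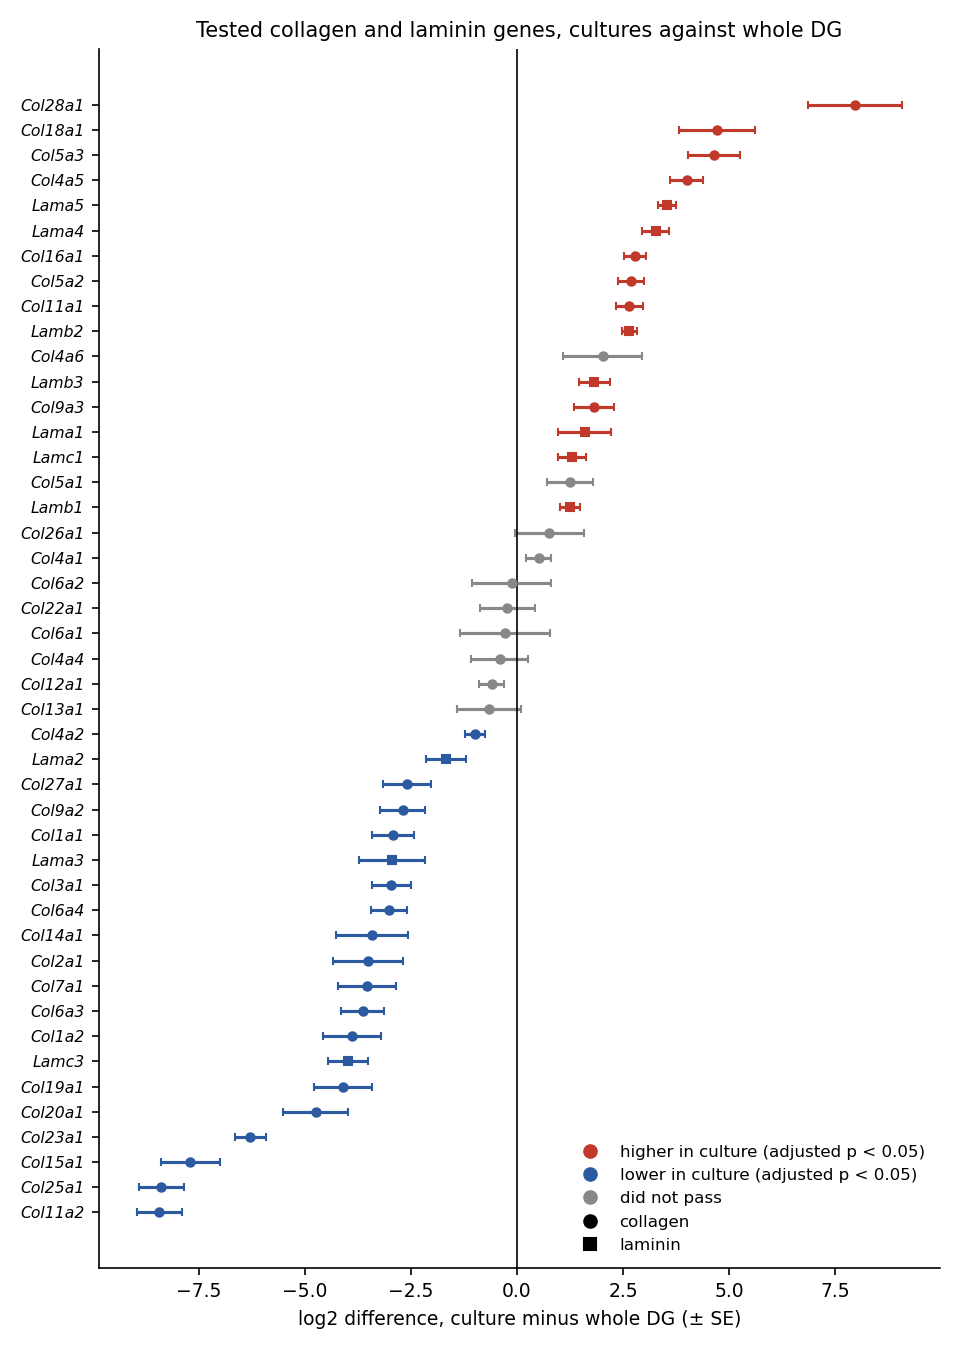
Log2 difference, culture minus whole DG, with its standard error, for 45 of the 46 tested members in order of size, circles for collagens and squares for laminins, red and blue for those higher and lower in culture at an edgeR adjusted p under 0.05 and grey for the rest. The values run from −8.43 for Col11a2 to 7.97 for Col28a1, and 7 of the 10 squares are red.

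Mural cell markers, whose cells also make basement membrane, fell in 8 of 13 tested genes and rose in 2. Among all genes, 41.7% fell and 35.6% rose. Pdgfrb, the receptor that defines pericytes, had 0.0825 CPM in culture F1 and 0 in the others, against 16.9 and 15.9 CPM in whole DG, and Cldn5, the tight junction protein of brain endothelium, had 0 counts in every culture. The sum of mural markers in culture, 120 to 258 CPM against 135 to 153 CPM in whole DG, was mostly Cspg4 and Notch3. Cspg4 had 99.5, 69.3, 99.1 and 216 CPM in the cultures, against 17 and 20.2 CPM in whole DG. Notch3 had 15.7, 27.4, 30 and 37.1 CPM in the cultures, against 6.64 and 9.23 CPM in whole DG. Cspg4 is also made by oligodendrocyte precursors. Acta2, smooth muscle actin, had 3.80, 13.8, 4.96 and 2.24 CPM in the cultures, against 3.42 and 1.03 CPM in whole DG. Among endothelial markers Flt1, a receptor for vascular growth factors, had 2.72, 0.519, 1.53 and 0.584 CPM in the cultures, against 35.3 and 32.6 CPM in whole DG. The part of such cells in the rises of Lama4, Lama5, Col18a1 and Col4a5 was not tested.

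Partner genes of the same matrix were given in 4 lists, with the most abundant genes of each named. The counts of each list stand beside 35.6% higher and 41.7% lower over all 18088 genes tested. Of 13 basement membrane partners, 8 rose, 3 fell and 2 did not pass. Sparc, a collagen-binding protein that accompanies collagen IV, had 645, 1245, 484 and 428 CPM in the cultures, against 192 and 174 CPM in whole DG, at log2 1.94 ± 0.44 (SE; adjusted p = 0.00363, edgeR). Fbln2, fibulin 2, a laminin and nidogen binder, had 339, 665, 218 and 72.6 CPM in the cultures, against 6.77 and 5.59 CPM in whole DG, at log2 5.71 ± 0.94 (SE; adjusted p = 0.000643, edgeR). Agrn, the heparan sulfate proteoglycan agrin, fell to 37.9, 32.5, 50.9 and 50.3 CPM in the cultures, against 171 and 212 CPM in whole DG, at log2 −2.16 ± 0.20 (SE; adjusted p = 2.14e-05, edgeR). The direction of the list was thus not shared by all: the perlecan gene Hspg2 and Nid2 rose and Nid1 did not pass, all named after their values were seen.

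Genes that fold and modify collagen chains in the endoplasmic reticulum or trim them outside the cell gave 13 higher and 9 lower of 25 tested. Of all genes, 35.6% were higher and 41.7% lower. Serpinh1, the collagen-specific chaperone HSP47, had 629, 459, 478 and 679 CPM in the cultures, against 13.1 and 12.6 CPM in whole DG, at log2 5.45 ± 0.25 (SE; adjusted p = 5.42e-07, edgeR). P4hb, the disulfide isomerase subunit of prolyl hydroxylase, had 782, 742, 642 and 754 CPM in the cultures, against 114 and 109 CPM in whole DG. Ppib, cyclophilin B, had 309.5, 268, 297 and 340.0 CPM in the cultures, against 98.9 and 122 CPM in whole DG. Both rose, by log2 differences of 2.71 and 1.46 (adjusted p = 1.15e-06 and 5.07e-05, edgeR). The prolyl hydroxylase alpha subunits fell unequally. P4ha1, the most abundant, fell by only 0.38 in log2 (adjusted p = 0.0403, edgeR), from a mean of 84.6 CPM in whole DG to 65.2 in cultures. The scarce P4ha2 and P4ha3, with means of 7.26 and 1.72 CPM in whole DG, fell by 4.83 and 3.83. Of 3 tested crosslinking enzymes, Loxl3 rose, with 40.4, 44.6, 38.3 and 48.6 CPM in the cultures, against 10.4 and 12.8 CPM in whole DG. Loxl1 fell, with 0.0825, 1.56, 0.382 and 0 CPM in the cultures, against 7.61 and 5.22 CPM in whole DG, and Loxl2 did not pass.

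Receptors gave 8 higher and 5 lower of 15 tested, where 35.6% of all genes were higher and 41.7% lower. Itgb1, the integrin beta chain shared by most laminin and collagen receptors, had 1440, 1477, 1443 and 1465 CPM in the cultures, against 49.5 and 37.5 CPM in whole DG, at log2 5.07 ± 0.18 (SE; adjusted p = 1.93e-07, edgeR). Dag1, dystroglycan, had 596, 631, 731 and 1008 CPM in the cultures, against 133 and 127 CPM in whole DG, at log2 2.51 ± 0.24 (SE; adjusted p = 2.89e-05, edgeR). Adgrg1, an adhesion receptor that binds collagen III in the developing brain, had 381, 526, 456 and 644 CPM in the cultures, against 68.3 and 71.2 CPM in whole DG, at log2 2.85 ± 0.24 (SE; adjusted p = 1.15e-05, edgeR). For these 3 genes every culture was above both tissue libraries. Col3a1, which encodes the collagen that Adgrg1 binds, was at most 1.14 CPM in any culture.

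A second comparison set the 2 female cultures against the 2 male ones. Of 28 members tested, 0 passed an adjusted p of 0.05 in edgeR, where 4 of 15140 genes did (0.0264%), and 4 members had an unadjusted p under 0.05, among 942 genes in all. DESeq2 called 1 member, Col5a3, and edgeR without a filter on low counts called Col5a3, Col9a3 and Col26a1. Col5a3 had 61.3 and 123 CPM in females and 42.7 and 37.6 CPM in males, a log2 difference, female minus male, of 1.19 (SE 0.33; adjusted p = 0.746, edgeR). Col11a1 had 19.7 and 20.9 CPM in females and 35.4 and 32.6 CPM in males, at −0.75 (SE 0.19; adjusted p = 0.746, edgeR). Col6a1 differed between the cultures of 1 sex, 31.5 and 3.12 CPM in females and 27.4 and 0.584 CPM in males, by more than it did between the sexes.

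In the single-cell library, which counts molecules by unique molecular identifiers (UMIs) at the 3′ end of transcripts, 14912 cells held 2001 to 8531 UMIs each. With 1 library there is no test between clusters, and intervals are exact 95% Poisson intervals that cover counting error only. Lamc1 led the members, with 0.591 UMI per 10000 (0.572 to 0.610). Lamb1 followed with 0.189, Col9a3 with 0.171, Lama5 with 0.162, Lamb2 with 0.132 and Col4a1 with 0.112. Of these, Lamb2, Lamb1, Lamc1 and Col9a3 were also among the 5 members with the highest level per kb in bulk cultures, while Col18a1, with the highest mean there, had 0.0652 UMI per 10000. Over the 35 members in both tables, the culture mean CPM per kb and the UMI level had a Spearman's rho of 0.85, a description across genes that share libraries. The 20 members not listed averaged at most 4.94 CPM in bulk cultures, that maximum being Col6a2. Col6a1 had 21 UMIs in all. Sox2, with a mean of 6.10 CPM in bulk cultures against 108 for Lamc1, had 1.68 UMIs per 10000, above every member. Why the bulk and single-cell levels of Sox2 part was not tested.

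All 6 clusters of the authors, numbered 0 to 5, held the members. Cluster 0, of 3925 cells, had the highest total, 2.42 UMIs per 10000 (2.34 to 2.50). Cluster 3 had 2.20 (2.10 to 2.30), cluster 2 had 2.10, cluster 4 had 2.09 and cluster 5 had 1.93. Cluster 1 had the lowest, 1.84 (1.76 to 1.92). With cells thinned to 2000 UMIs each, cluster 0 stood at 2.33 and cluster 3 at 2.09. Cells of cluster 0 had a median of 3749 UMIs and a mitochondrial share of 11.6%, the highest of the clusters, against 3431 and 9.98% in cluster 1, and the part of depth or RNA quality in these levels was not tested.

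Several members had a wider range between clusters than the total did. Single members rest on fewer UMIs, which widens such ranges: cluster 5 held 14 of Col11a1 and 883 of all members. Of 17 members with at least 200 UMIs, 10 were highest in cluster 0, and 8 had intervals of the highest and lowest cluster that did not overlap. Those clusters were picked from the same counts, which favours a gap. The matching shares over all genes were not measured, so these counts are not particular to the members. Col11a1 had 0.0952 UMI per 10000 (0.0803 to 0.112) in cluster 0 and 0.0306 (0.0167 to 0.0514) in cluster 5. Lama4 had 0.0860 (0.0718 to 0.102) in cluster 0 and 0.0328 (0.0184 to 0.0541) in cluster 5. Both were thus lowest in cluster 5. Col18a1 had 0.103 (0.0870 to 0.120) in cluster 0, 0.0853 (0.0607 to 0.117) in cluster 5 and 0.0401 (0.0295 to 0.0533) in cluster 1, so that cluster 5 was not low for every member. Col4a2 was highest in cluster 3, with 0.0669 (0.0502 to 0.0872), and lowest in cluster 4, with 0.0256 (0.0154 to 0.0400). Lamc1 was nearly level, between 0.548 and 0.634 in all 6. Over the library, endothelial markers, 11 of 15 listed, summed to 0.0659 UMI per 10000. Mural cell markers, 8 of 15 listed, summed to 0.307, of which Cspg4 had 0.185. Fibroblast and leptomeningeal markers, 7 of 15 listed, summed to 0.961, of which Ptgds had 0.775 and Foxc1 0.156. The 3 cultures of this library cannot be told apart, and their part in the differences between clusters was not tested.

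**Figure D5:**
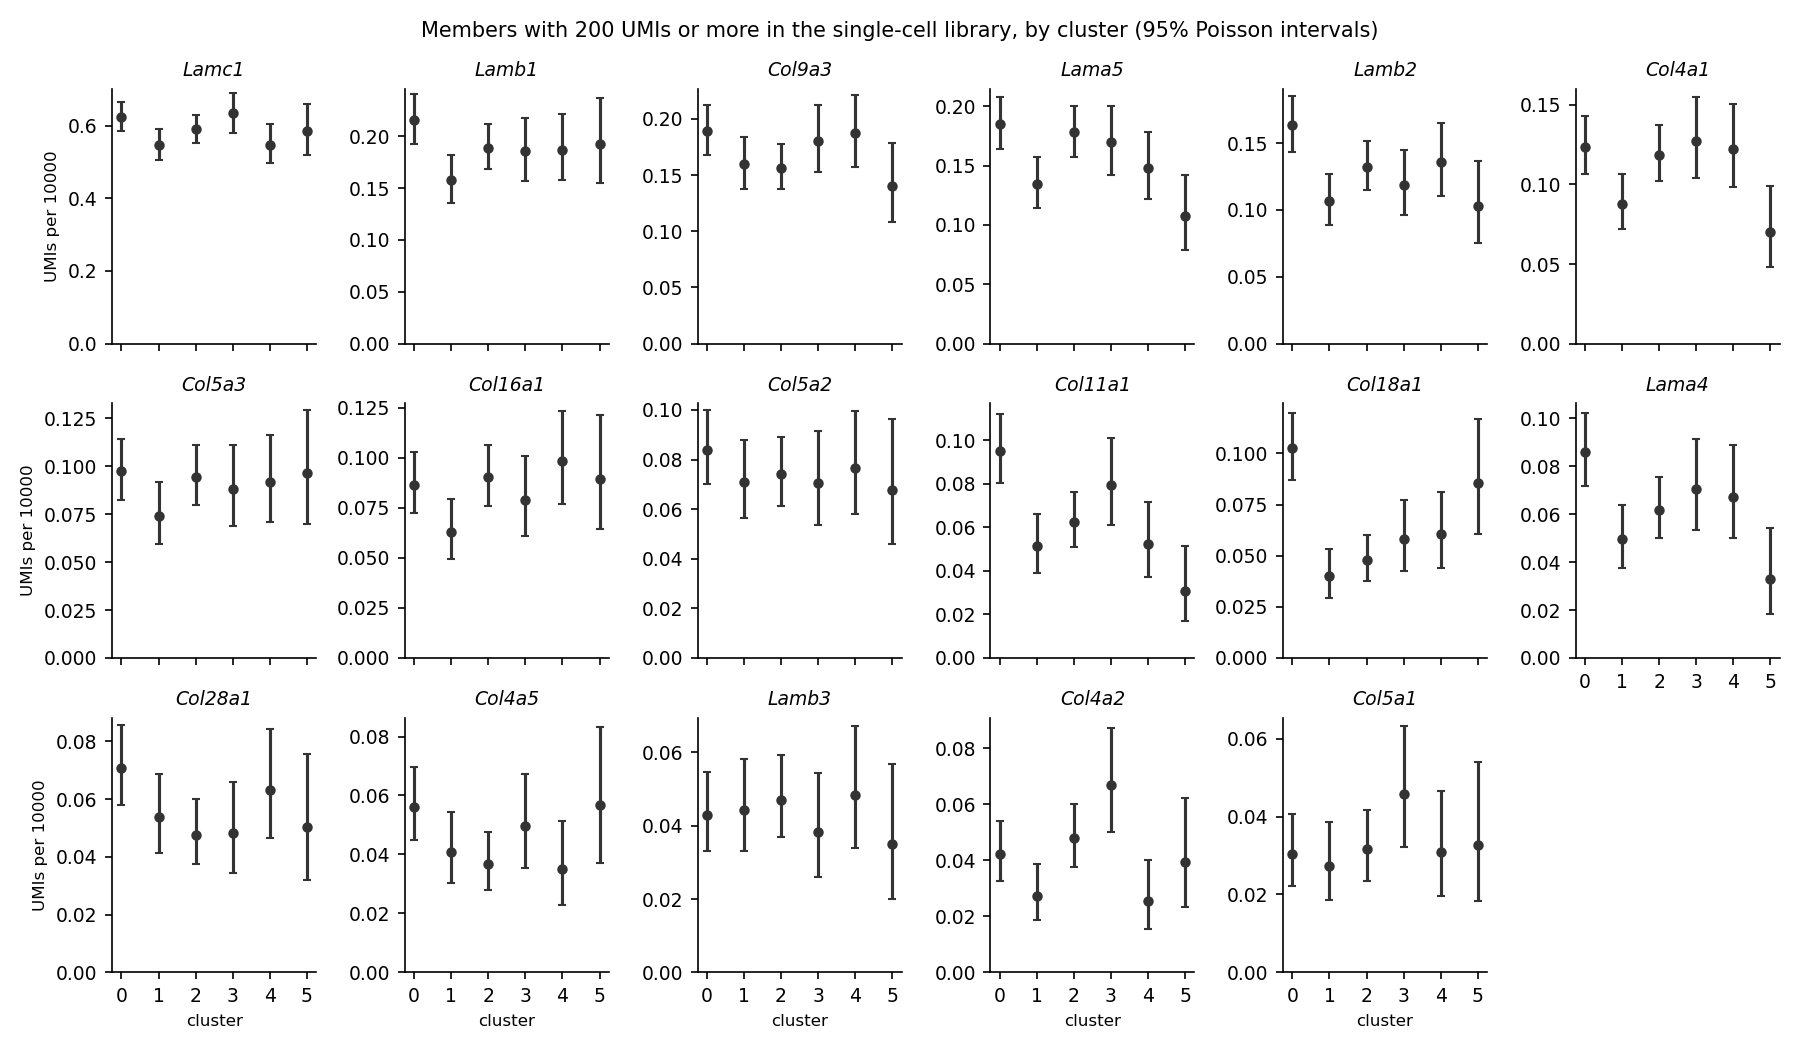
UMIs per 10000 of the 17 members with 200 UMIs or more in the authors' clusters 0 to 5 of the single-cell library, points with exact 95% Poisson intervals, each axis starting at 0. Lamc1 lies between 0.548 and 0.634 in all clusters, while Col11a1 is at 0.0952 in cluster 0 and 0.0306 in cluster 5.

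Of the 55 members, 34 have an annotated span, introns included, that overlaps another annotated gene. How much of each overlap lies in exons was not measured. Values are uncertain to that extent, since the sources used here do not say whether reads were counted by strand. Col4a1 with Col4a2, which share only 22 bases, and Col18a1 with Slc19a1 are among these members.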

How the data were processed

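Bulk counts are whole reads per gene, deposited by the authors without normalization. The submitters' processing notes name HISAT2 2.0.6, Subread and featureCounts, and the assembly GRCh38, although the symbols are mouse symbols. Per the labels' protocols, cultures were made into libraries with a SMART-Seq HT kit and whole DG with a NEBNext Ultra II Directional kit. Single-cell values were deposited by the authors as the natural log of 1 plus UMIs per 10000, from which whole UMIs were recovered (100% within 0.01). Doublets were not sought and no cell filter was added. Counts were fitted with edgeR 4.0.16 (R 4.3.3; quasi-likelihood F test, TMM, default low-count filter, robust) on all 6 bulk libraries with group as the only term, and with the 4 cultures for sex, at an adjusted p of 0.05. glmTreat asked for a fold above 2. The fits were tested on simulated data. For cultures against whole DG, they recovered 34% of genes set to a fold of 2 and 73% at 4. For the sexes they recovered 38% and 82%, so a difference that did not pass may have been missed. Alternatives were DESeq2 1.42.0, other scalings and filters, leaving out each library, a replicate block, a sex term, and offsets for length and GC content.

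The cultures are described as separate and the 2 whole DG samples as 2 mice, so p-values measure the spread between these samples. Positions, lengths and overlaps come from GENCODE M21 on GRCm38. Members and gene lists were chosen with earlier results of these data known. Named with values in every library are members with a mean of 10 CPM or more in a bulk group or 0.1 UMI per 10000, and the 3 most abundant genes of each partner list. Other genes given with values were chosen after these were seen. 1 tested member is counted but not reported singly here. Intervals and ratios from few counts cover counting error only.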

Additional observations from a re-analysis of the deposited data

How the results depend on the processing

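Of 23 named members, 16 kept their direction and their side of the threshold under all 15 alternatives. The scalings moved the median log2 difference of all genes, −0.13 with TMM, to −0.23 with DESeq2 size factors and to 0.054 with upper quartile factors, and turned the direction of no named member. Removing length and GC trends raised 22 of 23 named members, by a median of 0.873. It turned Col4a2 to 0.88, Col6a1 to 0.39 and Col12a1 to 0.41, and the cause was not tested. Col6a1 also turned without culture F2 (0.063) and without M2 (0.12), within a range of −0.87 to 0.12 over the libraries left out. Members have a median exon length of 7973 bases and 53.8% G and C, against 3498 bases and 49.1% in protein-coding genes. Leaving out a library gave 15 to 17 members higher and 17 to 21 lower, and 10 to 15 and 12 to 19 past a fold of 2. In the sex comparison DESeq2 called 1 member higher in females, no filter called 1 higher and 2 lower, and leaving out a culture gave 0 to 1 each way. The 1 came without F1, where Col5a3 passed higher and Col9a3 lower. Genes called in all then numbered 81, and 53 with DESeq2 and 273 with no filter. Crosslinking enzymes had 2 higher instead of 1 in the 4 libraries named F1 or M2, with or without the block, and 2 lower instead of 1 with no filter. Thinned cells gave 2.33 UMIs per 10000 in cluster 0 and 2.09 in cluster 3.

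Libraries that share a name deviated together only weakly (correlation 0.0416 for F1 and 0.0543 for M2), and with 2 tissue libraries these are mirror images that cannot settle whether they pair. No label ties them, and they were treated as unpaired. With a replicate block on the 4 libraries, 16 members were higher and 21 lower. Col5a1 (1.47, edgeR adjusted p = 0.00728) and Col12a1 (−0.86, 0.0361) then passed, as they did in the 4 libraries without the block (1.35, 0.0169, and −0.83, 0.0305). Against the fit on all 6 libraries, the fit with the block moved Col11a2 to −7.49, Col18a1 to 3.73, Col28a1 to 8.60, Lama2 to −2.51 and Col6a1 to −1.16. Each move was over 1.5-fold, and no call of a named member ended. These moves include the loss of cultures F2 and M1. The log2 gap of Lama5 over Lama2 was 5.20 in all 6 libraries, 5.95 in the 4 without the block and 5.97 with it. Alternatives on the 4 libraries without the block, and on the partner lists, were chosen after seeing the data. Depth limits the members that fell: for 18 of the 20, the cultures together held under 60 counts.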
